A study of Homo sapiens with 5 samples.

Results

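The genes described here are the ligands, receptors, antagonists, SMADs and feedback genes of the TGF-beta and BMP pathway, measured in D54 cells with and without silencing of TIP-1. They were chosen by name, 55 in all, and each was represented by the array row annotated to that gene alone, taking the brightest where there were several. Such a row was found for 54 of them, out of 18417 genes with a row of their own. The remaining gene, BMPR1A, is not analysed here. D54, the cell line used throughout, comes from a human glioma. The silenced cells carried an shRNA against TIP-1, a small protein built of a single PDZ domain and encoded by TAX1BP3 (3 arrays, each with a different shRNA). The other cells carried a control shRNA (2 arrays from independent clones). All cells were D54, transfected and grown overnight after seeding, and whether the TIP-1 shRNA cells were clones or pools is not given in the sources used here. Each sample was hybridised to 1 Affymetrix whole-transcript array, and values are log2 signals, so a difference of 1 is a doubling of signal.

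TGF-beta family ligands are secreted dimers that bring together type II and type I receptor kinases on the cell surface. TGF-beta, activin and nodal lead to phosphorylation of SMAD2 and SMAD3, and BMPs to phosphorylation of SMAD1, SMAD5 and SMAD9, after which SMAD4 joins them and the complex enters the nucleus. The inhibitory SMADs, the decoy receptor BAMBI, PMEPA1 and SKIL are induced by the pathway and restrain it, while the ID genes are well known BMP targets. In gliomas TGF-beta, and its second isoform in particular, is known for immune suppression and invasion, and BMPs for driving glioma stem cells towards astrocytic differentiation.

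Promoters are printed for TGFB2 and BMP4, since these were the members with an unadjusted p under 0.05 and with all 3 TIP-1 shRNA arrays on the same side of both controls. The sequences are RefSeq's (GRCh38.p14), 5′ to 3′ on the gene's strand, from 250 bases before to 50 bases after the annotated start. They lie at chr1:218345086-218345385 on the + strand for TGFB2 and at chr14:53955001-53955300 on the - strand for BMP4, where the first of 3 annotated starts is shown. Capitals mark, on either strand, CAGAC (the SMAD box), GGCGCC (a GC-rich box bound by SMADs downstream of BMP), CACGTG (an E-box) and TGACG (part of the cyclic AMP response element).
TGFB2: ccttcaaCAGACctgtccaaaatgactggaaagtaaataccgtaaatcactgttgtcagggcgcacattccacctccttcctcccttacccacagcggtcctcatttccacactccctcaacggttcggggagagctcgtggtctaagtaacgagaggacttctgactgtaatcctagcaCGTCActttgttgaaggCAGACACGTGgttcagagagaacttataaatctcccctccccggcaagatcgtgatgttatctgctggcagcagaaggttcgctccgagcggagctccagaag
BMP4: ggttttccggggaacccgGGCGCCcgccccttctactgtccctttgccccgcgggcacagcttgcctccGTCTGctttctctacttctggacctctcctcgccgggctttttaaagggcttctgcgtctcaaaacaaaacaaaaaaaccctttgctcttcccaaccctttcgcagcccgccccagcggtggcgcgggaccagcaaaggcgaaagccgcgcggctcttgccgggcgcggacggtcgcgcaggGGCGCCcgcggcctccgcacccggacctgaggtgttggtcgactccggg
The TGFB2 window held 2 copies of CAGAC, 1 E-box and 1 TGACG, and 1 CAGAC overlapped the E-box by 1 base. The BMP4 window held 1 CAGAC and 2 GGCGCC. Both of the other BMP4 starts also held 1 CAGAC but no GGCGCC, and start 3 held 1 E-box, which the printed window lacks. Of all 35116 promoter windows of this length, 45.3% held CAGAC, 19.2% GGCGCC, 7.26% the E-box and 24.6% TGACG, so such matches are common, though less so for the E-box. They describe the letters only. A promoter was listed for 47 of the 54 genes.

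The 5 arrays were alike, with array medians from 7.88 to 7.98 and Pearson correlations from 0.991 to 0.997 over all rows (rows do not count as replicates). Every TIP-1 shRNA array had a lower median (7.88 to 7.95) than either control (7.96 and 7.98). The silenced gene checked the labels: the row of TAX1BP3, shared with a read-through transcript, read 9.81, 9.61 and 9.55 with shRNAs 1, 2 and 3, against 12.05 and 12.10 in the controls (log2 difference -2.42, SE 0.105, limma adjusted p = 0.011). Without control 1, control 2 or shRNA 2 the difference was -2.45, -2.39 and -2.39, but the adjusted p was 0.386, 0.387 and 0.129, in a range of 0.00534 to 0.387 over all alternatives. Of the 10 glioma and astrocytic markers, vimentin (VIM) averaged 13.93 with TIP-1 shRNA and 13.98 in controls, and CD44 13.80 and 13.76. The mean was lower with TIP-1 shRNA for 7 of the 10 and higher for 3 (30%, against 47.6% of all genes). For EGFR (difference -0.13, SE 0.08) and SLC1A3 (-0.23, SE 0.12) all 3 shRNA arrays lay below both controls (20%, against 14.1% of all genes). The astrocyte protein GFAP gave 8.02 and 8.09, S100B 6.28 and 6.26, and NES 7.86 and 7.98. SOX2 gave 7.16 and 7.12, OLIG2 7.30 and 7.44, AQP4 5.54 and 5.71, and SLC1A3 6.34 and 6.57. These signals were close to or below the median of all rows, 7.94, and without a detection call none can be called absent. Of the 17 markers of blood cells, endothelium, epithelium, neurons and oligodendrocytes that had a row, none passed the test. The epithelial marker EPCAM read 6.55, 6.22 and 5.88 with TIP-1 shRNA and 6.75 in each control (unadjusted p = 0.031, limma adjusted p = 0.707), and the neuronal marker SYP also had an unadjusted p under 0.05. The epithelial markers did not move together. CDH1 lay above both controls in all 3 shRNA arrays (difference 0.08), KRT14 lay below both (-0.22) and KRT5 overlapped them (-0.03). EPCAM and SYP both lay below the median of all rows, and every sample was of the 1 line, D54. The part of these markers in the results below was not tested. In bulk RNA, fewer cells expressing a marker and less RNA per cell cannot be told apart.

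No gene of the pathway passed the test. At a limma adjusted p under 0.05, corrected over all 33297 rows, 0 of the 54 were called, as were 0% of the 18417 genes. The row of TAX1BP3, which carries a pair of symbols, was the only row called (0.003%), while 6.95% of rows had an unadjusted p under 0.05. At an unadjusted p under 0.05, 2 of the 54 were higher with TIP-1 shRNA (3.7%, against 3.08% of all genes) and 0 were lower (against 2.94%), so that either direction came to 3.7%, against 6.02%. Differences lay between -0.26 and 0.82 log2 units, with a median of 0.08, against -0.01 for all genes. Of the 54, 36 had a mean above that of the controls, or 66.7%, against 47.6% of all genes. The median was 0.02 without control 2 and 0.12 without control 1. Among genes brighter than the median row it was 0.08, against 0.02 for all such genes. The share with a higher mean was not taken among bright genes. All 3 TIP-1 shRNA arrays lay above both controls for 7 genes, or 13%, against 12.5% of all genes. They lay below both for 4, or 7.41%, against 14.1%. The first count is near the background share and the second is below it. The 7 were TGFB2, BMP4, INHBA, SMAD2, SMAD7, BAMBI and ID4, and the 4 were TGFB3, INHA, LEFTY2 and GREM1.

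**Figure D1:**
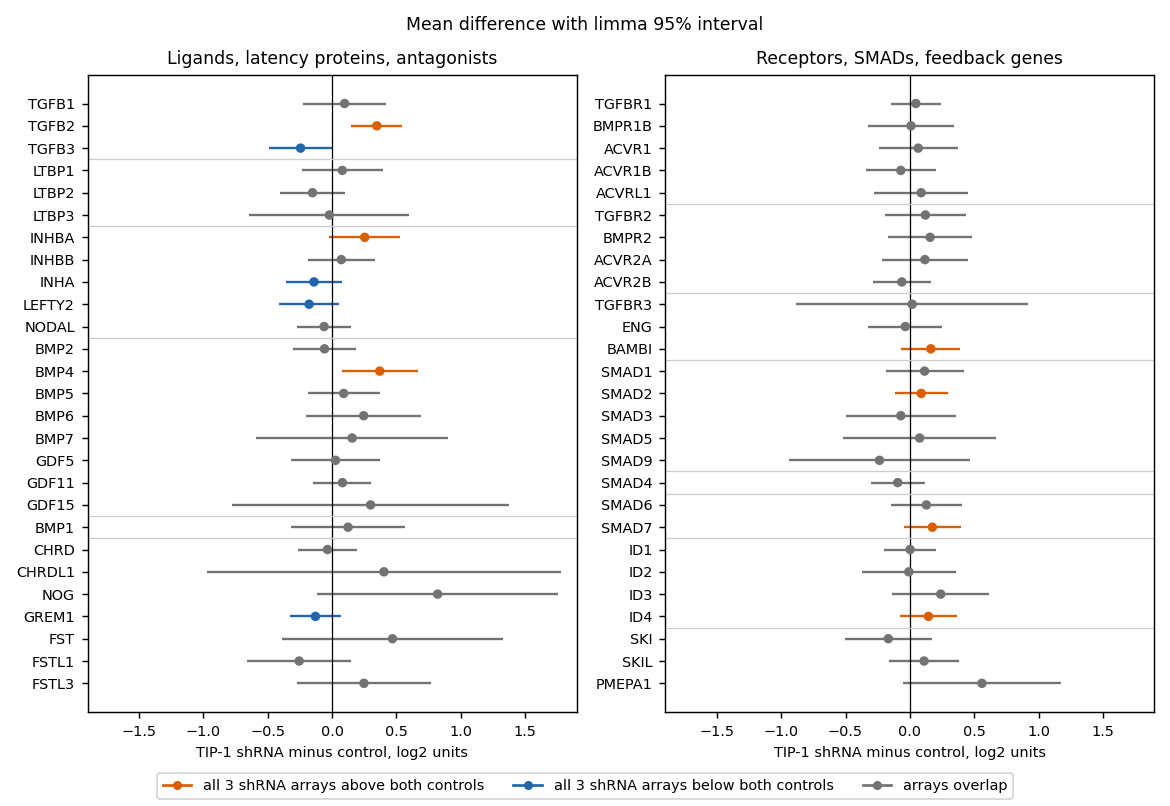
Mean log2 difference, TIP-1 shRNA (3 arrays) minus control shRNA (2 arrays), for each of the 54 genes, with limma's 95% interval as a bar; grey lines part the roles. The intervals of TGFB2 and BMP4 lie wholly above 0, and orange and blue mark the 7 and 4 genes whose arrays did not overlap.

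Among the TGF-beta ligands, the 3 isoforms gave different patterns over the arrays, though none passed and no difference between isoforms was tested. TGFB2, the isoform first known as a T cell suppressor made by glioblastoma, was represented by transcript cluster 7909789. Its log2 signal was 12.79, 12.83 and 12.79 with shRNAs 1, 2 and 3, against 12.51 and 12.41 in controls 1 and 2. The 3 shRNA arrays lay within 0.04 of each other and all above both controls. The difference was 0.35 (SE 0.08, 95% interval 0.15 to 0.55, a 1.27-fold higher signal), with the smallest p among the brightest rows of the 54 genes (unadjusted p = 0.005, limma adjusted p = 0.707). It stayed between 0.30 and 0.40 with any 1 array left out, and its unadjusted p was under 0.05 each time.

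TGFB3 went the other way. It read 6.97, 6.87 and 7.12 with TIP-1 shRNA, against 7.24 and 7.22 in controls, so all 3 shRNA arrays were lower, shRNA 3 by the least. The difference of -0.24 (95% interval -0.49 to 0.001) did not pass (limma adjusted p = 0.707), and was -0.18 with quantile normalization. Its signal lay below the median of all rows, 7.94. TGFB1, the isoform made by most cell types, read 11.92, 11.98 and 11.61 with TIP-1 shRNA and 11.80 and 11.69 in controls, with shRNAs 1 and 2 above both controls and shRNA 3 below both.

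The latent TGF-beta binding proteins hold TGF-beta in the matrix in its inactive form. LTBP3 read 10.33, 10.38 and 10.68 with TIP-1 shRNA, but the controls themselves were at 10.91 and 10.06, so the shRNA arrays lay between them. LTBP2 read 8.05, 8.14 and 8.25 against 8.21 and 8.39 in controls, with shRNA 3 between the controls. Its difference of -0.15 (SE 0.10) was -0.0628 without control 2 and -0.24 without control 1. LTBP1 averaged 9.13 ± 0.15 with TIP-1 shRNA and 9.05 ± 0.18 in controls (SD, n = 3 and n = 2). None of the 3 passed. BMP1, which despite its name is a protease that cleaves procollagens, LTBP1 and chordin, read 10.84, 10.89 and 10.32 with TIP-1 shRNA and 10.56 in each control. A dimmer row of BMP1 disagreed with it, at 6.66, 6.55 and 6.54 with TIP-1 shRNA and 7.08 and 6.91 in controls, below both controls in every shRNA array. That row's difference was -0.41 (SE 0.09, unadjusted p = 0.00448, limma adjusted p = 0.707), and as a dimmer row it is not in the counts over the 54 genes.

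Activins are dimers of the inhibin beta chains and signal through SMAD2 and SMAD3. INHBA, which encodes the chain of activin A, read 7.73, 7.89 and 7.58 with TIP-1 shRNA, against 7.48 and 7.49 in controls. The controls nearly coincided and every shRNA array was above them, shRNA 3 by the least. The difference was 0.25 (SE 0.11, 95% interval -0.02 to 0.53, limma adjusted p = 0.707). INHA, the alpha chain that turns an activin into an inhibin, read 7.93, 7.85 and 7.76 against 7.94 and 8.03, lower in all 3 but only narrowly in shRNA 1. Its difference was -0.14, but -0.0791 with quantile normalization. INHBB overlapped the controls, at 9.13, 9.02 and 8.92 against 9.05 and 8.86. LEFTY2, a secreted nodal inhibitor, read 9.35, 9.40 and 9.25 against 9.43 and 9.59 (difference -0.18, SE 0.10, but -0.0991 without control 2). NODAL, a ligand of the early embryo, averaged 6.35 with TIP-1 shRNA and 6.41 in controls, just under the lower quartile of all rows, 6.42.

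Of the 8 BMP and GDF ligands, 7 had a higher mean with TIP-1 shRNA, against 47.6% of all genes. The differences of BMP5, BMP7, GDF5, GDF11 and GDF15 turned negative when some 1 array was left out. BMP4 was the only ligand of the 8 with an unadjusted p under 0.05. BMP4, a BMP studied for its effect on glioma stem cells, was represented by transcript cluster 7979241. It read 8.78, 8.67 and 8.71 with shRNAs 1, 2 and 3, against 8.18 and 8.52 in the controls. The shRNA arrays were tightly grouped and above both controls, but the controls were farther apart than the shRNA arrays. The difference was 0.37 (SE 0.12, 95% interval 0.08 to 0.67, a 1.29-fold higher signal, unadjusted p = 0.022, limma adjusted p = 0.707). It was 0.20 without control 1, 0.34 without shRNA 1 and 0.54 without control 2, and the unadjusted p was no longer under 0.05 without control 1 or without shRNA 1.

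GDF15, a distant member of the family that is induced by cell stress, separated the shRNAs. It read 9.11, 9.47 and 10.67 with shRNAs 1, 2 and 3, against 9.27 and 9.63 in controls, so shRNA 3 alone was high, shRNA 1 lay below both controls and shRNA 2 between them. Its mean difference of 0.30 was -0.16 without shRNA 3. BMP7, a BMP that acts in kidney and bone, had the same array out of line, at 6.97, 6.94 and 7.86 against 7.34 and 6.86, and its difference of 0.16 was -0.14 without shRNA 3. BMP6, a regulator of iron metabolism, was high in the other shRNAs, at 7.76, 7.99 and 7.38 against 7.55 and 7.37. BMP2, BMP5, GDF5 and GDF11 had mean differences under 0.1 in size, with all of their adjusted p at 0.832 or above.

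**Figure D2:**
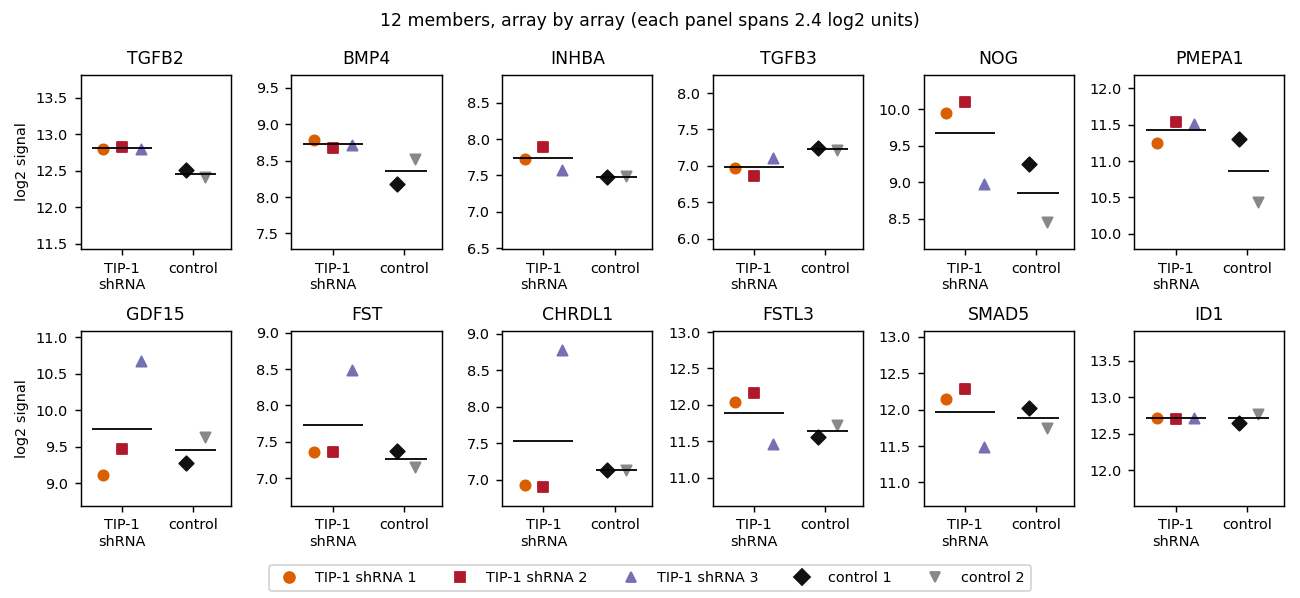
Log2 signal of 12 genes by array; TIP-1 shRNA arrays stand left of the controls in each panel, horizontal lines are group means, and every panel spans 2.4 log2 units. TGFB2 and BMP4 lie above both controls in all 3 shRNA arrays, GDF15, FST and CHRDL1 are high in shRNA 3 alone, and NOG is highest in shRNAs 1 and 2.

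Several secreted antagonists differed widely between arrays. Noggin (NOG), which binds BMPs and keeps them from their receptors, read 9.94, 10.10 and 8.97 with shRNAs 1, 2 and 3, against 9.24 and 8.46 in controls. shRNAs 1 and 2 were above both controls and shRNA 3 lay between them. Its difference of 0.82 (SE 0.39, 95% interval -0.12 to 1.76) was the largest in size among the 54 genes and did not pass (limma adjusted p = 0.707). It was 1.21 without control 1 and 0.43 without control 2.

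Follistatin (FST), which neutralises activins, read 7.36, 7.36 and 8.49 with TIP-1 shRNA, against 7.38 and 7.16 in controls. Only shRNA 3 stood out, 1.22 above the control mean, and the group difference of 0.47 (SE 0.35) came to 0.09 without it. Chordin-like 1 (CHRDL1), a BMP antagonist, showed a sharper split, at 6.92, 6.90 and 8.78 with TIP-1 shRNA against 7.13 in each control. shRNAs 1 and 2 were lower than both controls and shRNA 3 was 1.65 above their mean. The group difference of 0.40 had a 95% interval of -0.97 to 1.78.

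FSTL3, a secreted follistatin relative that also binds activins, read 12.04, 12.17 and 11.46 with TIP-1 shRNA and 11.57 and 11.72 in controls, again with shRNAs 1 and 2 on one side and shRNA 3 on the other. FSTL1, a secreted glycoprotein of the follistatin family, read 13.02, 12.78 and 13.28 with TIP-1 shRNA and 13.14 and 13.42 in controls, with shRNA 3 between the controls. Its difference of -0.26 (SE 0.17) was -0.12 without control 2 and -0.39 without control 1. Gremlin (GREM1), another BMP antagonist, was slightly lower in every shRNA array, at 7.19, 7.24 and 7.15 against 7.30 and 7.34 (difference -0.13, SE 0.08). Chordin (CHRD) averaged 8.08 ± 0.10 with TIP-1 shRNA and 8.12 ± 0.01 in controls (SD, n = 3 and n = 2).

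No receptor transcript passed the test. The 5 type I receptors measured (TGFBR1, ACVR1, ACVR1B, ACVRL1 and BMPR1B), the kinases that phosphorylate SMADs, had differences between -0.07 and 0.09, with limma adjusted p of 0.88 or above. ACVRL1, a BMP9 and BMP10 receptor best known from endothelium, read 8.72, 8.71 and 8.74 with TIP-1 shRNA, against 8.88 and 8.39 in controls, so the shRNA arrays lay between widely separated controls. Its difference was -0.16 without control 2 and 0.34 without control 1, where its unadjusted p was under 0.05. That of BMPR1B, a BMP receptor, was likewise -0.20 without control 2 and 0.21 without control 1. TGFBR1, the type I receptor of TGF-beta, read 11.06, 11.03 and 11.03 with TIP-1 shRNA and 10.95 and 11.03 in controls. The 4 type II receptors, which activate the type I receptors, had differences between -0.06 and 0.16. TGFBR2, the type II receptor of TGF-beta, read 9.22, 9.42 and 9.18 against 9.31 and 8.99. BMPR2, its BMP counterpart, read 11.59, 11.66 and 11.42 against 11.58 and 11.23. ACVR2A, an activin type II receptor, read 7.87, 7.98 and 7.77 against 7.56 and 7.95, and in all 3 genes the groups overlapped.

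TGFBR3 (betaglycan), a co-receptor that presents TGF-beta2 to TGFBR2, was the member whose controls lay farthest apart, at 7.63 and 8.62. It read 8.44, 8.43 and 7.58 with shRNAs 1, 2 and 3, so shRNA 3 sat with control 1 and the others near control 2. Endoglin (ENG), a TGF-beta and BMP co-receptor, read 12.41, 12.42 and 12.12 with TIP-1 shRNA and 12.34 and 12.36 in controls. BAMBI, a receptor without a kinase domain, was a little higher in all 3 shRNA arrays, at 8.32, 8.36 and 8.52 against 8.25 and 8.23 (difference 0.16, SE 0.09, limma adjusted p = 0.723), by 0.10 without shRNA 3.

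**Figure D3:**
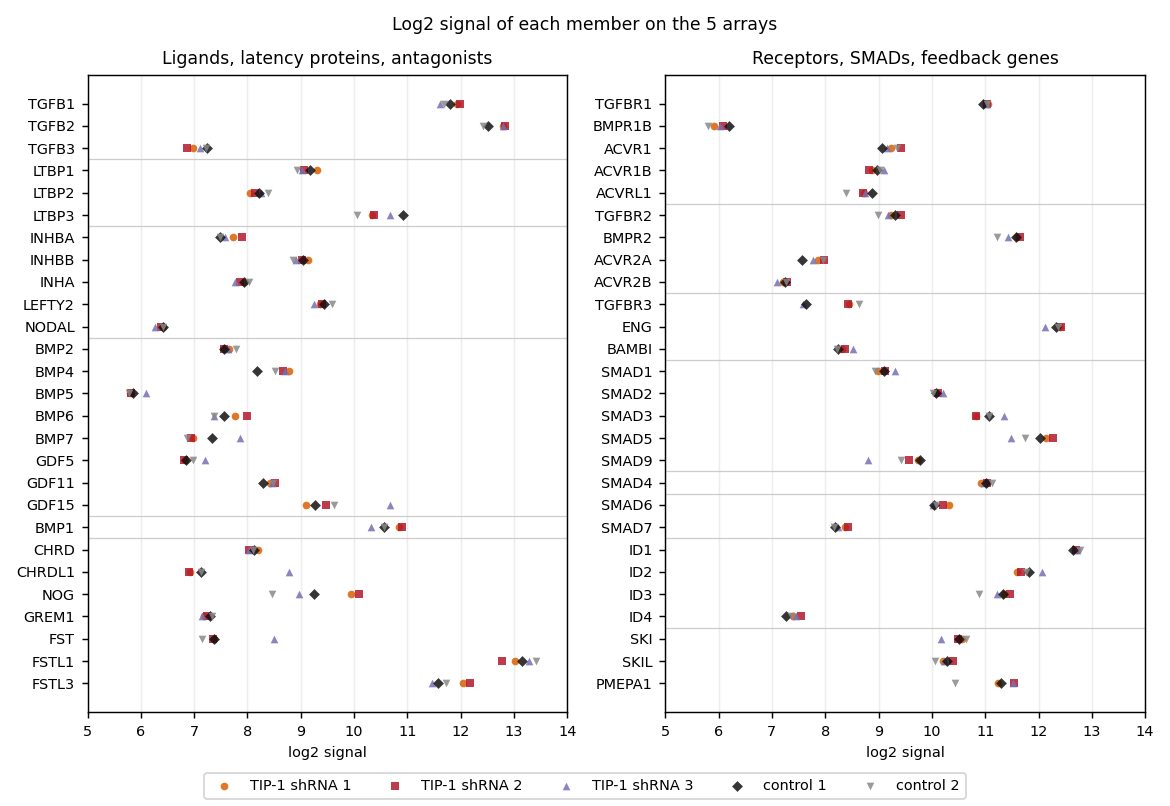
Log2 signal of all 54 genes on the 5 arrays; each symbol is 1 array and grey lines part the roles. The arrays of most genes lie close together, and the exceptions, such as NOG, GDF15, CHRDL1, FST, TGFBR3, SMAD5 and SMAD9, are spread within a group as well as between groups; signals of different genes depend on their probes and do not rank the genes.

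The SMAD transcripts did not separate the groups, apart from small shifts in SMAD2 and SMAD7. SMAD2, which carries TGF-beta and activin signals, read 10.09, 10.12 and 10.21 with TIP-1 shRNA and 10.08 and 10.02 in controls, so all 3 were above both controls, shRNA 1 only narrowly. A dimmer row of SMAD2 overlapped, at 9.30, 9.27 and 9.43 against 9.18 and 9.36. SMAD3, its partner, read 10.84, 10.82 and 11.35 with TIP-1 shRNA against 11.07 and 11.08 in controls, low in shRNAs 1 and 2 and high in shRNA 3. SMAD4, shared by both branches, read 10.93, 11.03 and 10.98 against 11.02 and 11.13.

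SMAD5 and SMAD9, activated by BMPs, varied more. SMAD5 read 12.14, 12.28 and 11.48 with TIP-1 shRNA and 12.03 and 11.75 in controls, above both in shRNAs 1 and 2 and below both in shRNA 3. SMAD9 read 9.74, 9.58 and 8.79 against 9.78 and 9.43, so shRNA 3 was 0.81 below the control mean while the others lay between the controls. SMAD1 read 8.98, 9.11 and 9.32 against 9.11 and 8.94 (difference 0.11, SE 0.12, but 0.0246 without shRNA 3). Of the inhibitory SMADs, SMAD7 read 8.37, 8.43 and 8.24 with TIP-1 shRNA and 8.18 and 8.16 in controls, above both in every array (difference 0.17, SE 0.09, limma adjusted p = 0.713). SMAD6, which mainly restrains BMP signalling, read 10.33, 10.21 and 10.02 against 10.04 and 10.07, above both controls in shRNAs 1 and 2 only.

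The ID genes encode helix-loop-helix proteins that block differentiation factors. ID1 held nearly the same signal on every array, at 12.72, 12.71 and 12.72 with TIP-1 shRNA and 12.65 and 12.77 in controls. The 95% interval of its difference, -0.20 to 0.20, bounds a change at about 1.15-fold either way. ID2 read 11.60, 11.68 and 12.07 against 11.81 and 11.77, low in shRNAs 1 and 2 and high in shRNA 3 (difference -0.01, 95% interval -0.37 to 0.36). ID3 read 11.35, 11.47 and 11.22 against 11.33 and 10.88 (difference 0.24, 95% interval -0.14 to 0.62), and the difference was 0.01 without control 2 and 0.47 without control 1, where its unadjusted p was under 0.05. ID4 read 7.39, 7.55 and 7.44 against 7.27 and 7.36, above both controls in all 3 arrays (difference 0.14, SE 0.09).

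PMEPA1, a TGF-beta target that holds back SMAD2 and SMAD3, read 11.24, 11.53 and 11.51 with TIP-1 shRNA. Its controls differed by 0.86, at 11.30 and 10.44, and the higher of them lay above shRNA 1. The difference of 0.56 (SE 0.25, 95% interval -0.05 to 1.17) was 0.13 without control 2 and 0.99 without control 1. The co-repressor SKI read 10.56, 10.48 and 10.16 against 10.51 and 10.63, lowest in shRNA 3 (difference -0.17, SE 0.14, but -0.0472 without shRNA 3). Its relative SKIL read 10.21, 10.40 and 10.23 against 10.29 and 10.05 (difference 0.11, SE 0.11).

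The 3 shRNAs were then set against the controls one by one, without a test, since each had 1 array and all shared the controls. At least 1.5-fold above both controls were NOG in shRNA 1 (1 gene, 1.85%, against 0.309% of all genes) and NOG in shRNA 2 (1 gene, against 0.369%). In shRNA 3 these were GDF15, FST and CHRDL1 (3 genes, 5.56%, against 1.34%). At least 1.5-fold below both controls there were 0 in shRNA 1 (against 0.462%), 0 in shRNA 2 (against 0.559%) and SMAD9 alone in shRNA 3 (1.85%, against 0.445%). The sets of shRNAs 1 and 2 rest on NOG alone, whose controls were themselves at least 1.5-fold apart (9.24 and 8.46). How often such sets share a gene over all genes was not counted, so nothing is read from their overlap.

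**Figure D4:**
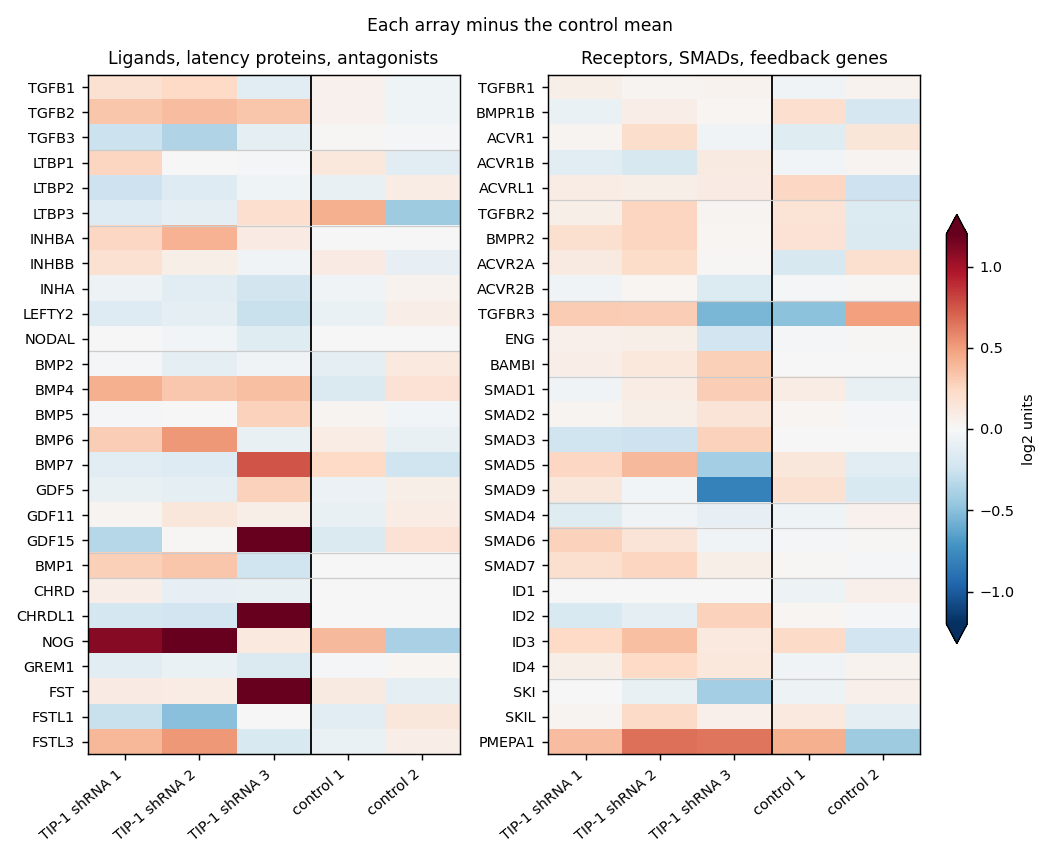
Each array's log2 signal minus the mean of the 2 controls, by gene and array, with the TIP-1 shRNA arrays left of the black line; colours end at 1.2 log2 units either way. shRNA 3 differs from shRNAs 1 and 2 for GDF15, CHRDL1, FST, BMP7, NOG, SMAD5 and SMAD9, and the controls differ from each other for TGFBR3, PMEPA1, LTBP3 and NOG.

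For 11 genes shRNA 3 lay on the other side of both controls from shRNAs 1 and 2, a count made after the values were seen. That was 20.4% of the 54 genes, against 10.4% of all genes. In 6 of the 11 (TGFB1, ENG, BMP1, SMAD5, SMAD6 and FSTL3) shRNAs 1 and 2 were above the controls and shRNA 3 below. In the other 5 (ACVR1B, SMAD3, ID2, CHRDL1 and GDF5) they were below and shRNA 3 above. shRNA 1 was the odd array for CHRD alone (1.85%, against 5.42%) and shRNA 2 for ACVR2B alone (1.85%, against 2.52%). shRNAs 1 and 2 were together above both controls for 17 genes (31.5%, against 20.7%) and below both for 11 (20.4%, against 22.3%). For shRNAs 1 and 3 these counts were 8 (14.8%, against 15.9%) and 6 (11.1%, against 17.7%), and for shRNAs 2 and 3 they were 9 (16.7%, against 17.5%) and 7 (13%, against 24.2%).

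The spread within groups was wide for these genes, though not for them alone. The 3 shRNA arrays lay at least 1.5-fold apart for 10 of the 54, or 18.5%, against 5.77% of all genes: TGFBR3, BMP6, BMP7, SMAD5, SMAD9, CHRDL1, NOG, FST, FSTL3 and GDF15. The controls lay that far apart for 4, TGFBR3, PMEPA1, LTBP3 and NOG, or 7.41%, against 2.05%. Signal level moves with such spread, so the shares were also taken over genes brighter than the median row. There the shRNA arrays were 1.5-fold apart for 6 of 38 (15.8%, against 6.56%) and the controls for 4 (10.5%, against 2.37%), and shRNA 3 was opposite for 9 (23.7%, against 12.5%). These shares were not planned beforehand, and the genes were chosen with earlier results of these data known. They describe the list and carry no test. Among the reported target genes described below, the shRNA arrays lay 1.5-fold apart for 9 of 38 (23.7%) and the controls for 6 (15.8%). Among the other pathway components these counts were 2 of 44 (4.55%) and 1 (2.27%).

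**Figure D5:**
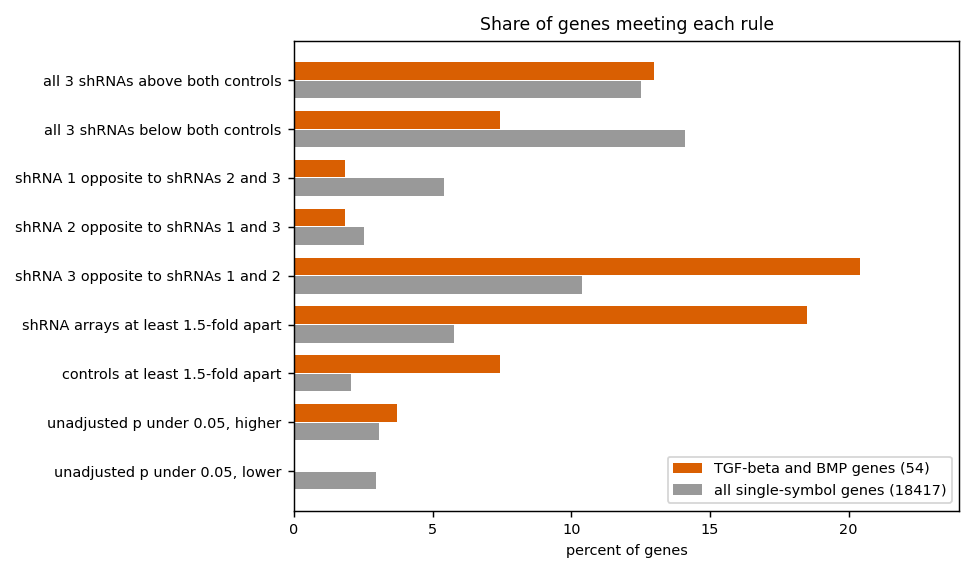
Percent of the 54 TGF-beta and BMP genes (orange) and of all 18417 single-symbol genes (grey) that met each rule. The shares are close for genes above both controls (13% and 12.5%) and far apart for a 1.5-fold spread among the shRNA arrays (18.5% and 5.77%).

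Beyond the 54 genes, 44 of 48 other pathway components had a row. None passed the adjusted test. At an unadjusted p under 0.05, 1 was higher (2.27%, against 3.08% of all genes) and 2 were lower (4.55%, against 2.94%). The list's median difference was -0.06, but -0.0159 with quantile normalization and 0.00551 with median centring, so its direction depended on the scaling. Furin, the protease that matures TGF-beta precursors (FURIN), read 10.05, 10.20 and 10.06 with TIP-1 shRNA and 9.84 and 9.83 in controls, above both in every array (difference 0.27, SE 0.09, limma adjusted p = 0.707). The lower genes were CHRDL2, a chordin relative (-0.21, SE 0.08), and BMP10, a heart ligand (-0.25, SE 0.10, but -0.15 without control 2). Next by p came SMURF2, a ubiquitin ligase that degrades receptors and SMADs (-0.30, SE 0.12, but -0.12 without control 2), and the BMP co-receptors RGMA (-0.18, SE 0.08) and RGMB (-0.30, SE 0.13). All 3 shRNA arrays lay below both controls for 10 of the 44 (22.7%, against 14.1% of all genes) and above both for FURIN alone (2.27%, against 12.5%).

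Of 40 reported TGF-beta or BMP target genes, 38 had a row, and none passed the adjusted test. At an unadjusted p under 0.05, 2 were higher (5.26%, against 3.08% of all genes) and 2 lower (5.26%, against 2.94%). The median difference was -0.08, but -0.033 without shRNA 3, -0.0347 without control 2 and -0.0221 with median centring. The higher genes were JUNB, an AP-1 factor (0.29, SE 0.09), and the integrin chain ITGB6 (0.29, SE 0.12, but 0.18 without control 2), whose integrin activates latent TGF-beta. The lower genes were fibronectin, FN1 (-1.67, SE 0.46), and the collagen cross-linking enzyme LOX, which read 13.27, 12.91 and 13.04 with TIP-1 shRNA and 13.71 and 13.40 in controls (-0.48, SE 0.15). FN1 read 7.71, 8.20 and 8.73 with TIP-1 shRNA and 9.16 and 10.60 in controls, and its difference was -0.95 without control 2. The cell cycle inhibitor CDKN1A (-0.22, SE 0.10) and the mesenchymal factor ZEB1 (-0.25, SE 0.12, but -0.16 without shRNA 3) came next. For each of these 6 genes, which were taken for their small p, the shRNA arrays lay on 1 side of both controls. Over the list, all 3 lay above both controls for 4 of the 38 (10.5%, against 12.5% of all genes). They lay below both for 7 (18.4%, against 14.1%).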

How the data were processed

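Total RNA of 5 D54 samples was measured on 1 Affymetrix array each. The deposited values are log2 signals per transcript cluster, which the authors obtained from the Exon Array Computational Tool of Affymetrix, per the series' design text. For its version, background correction and normalization, the sources used here give nothing. The design text names an exon array, but row identifiers matched the annotation of a gene-level array, so no exon was compared. Array quantiles were close but differed by group. The lower quartile was 6.35 to 6.42 with TIP-1 shRNA and 6.44 and 6.45 in controls, and the upper quartile 9.79 to 9.83 against 9.77. Values were used as deposited. There is no detection call, and the number of arrays limits the precision.

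Of 33297 rows, 19460 had 1 gene symbol, 1754 several and 12083 none; the brightest single-symbol row stood for each gene. TIP-1 shRNA (3 arrays) was compared with control shRNA (2 arrays) by limma 3.58.1 in R 4.3.3 (lmFit, eBayes, two-sided), adjusted by Benjamini-Hochberg over all rows at 0.05; the fit was tested on simulated data. The p-values reflect how far clones, and different shRNAs, lie apart. An exact permutation test could not go below p = 0.1, so none was used. Replicate numbers did not pair the arrays. Alternatives were quantile normalization, median centring, bright rows, another variance model, array weights, a replicate block, the mean of a gene's rows and leaving out each array. Members and lists were chosen with earlier results of these data known. Named genes were those with an unadjusted p under 0.05, the largest differences, brightest rows and widest spreads, every member by role, and the 6 smallest p of each further list.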

Additional observations from a re-analysis of the deposited data

How the results depend on the processing

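In 632 alternative values of the 54 genes, 0 passed the adjusted threshold, and the 54 gave 0 calls under every alternative, as deposited too (limma; 2 had an unadjusted p under 0.05). The number of rows called was 1 as deposited, 2 with array weights, 15 with the replicate block and 0 to 6 with 1 array left out; TAX1BP3 kept its direction throughout. For numbers 1 and 2, deviations from the group means correlated at r = 0.0486 and -0.0529, so the arrays were not taken as pairs. Members higher at an unadjusted p under 0.05 numbered 2 as deposited, 4 with quantile normalization or median centring, 8 with array weights, 7 with the replicate block and 1 to 9 with 1 array left out. Lower ones numbered 0, then 2 with array weights and with the block, 1 (TGFB3) with the mean of rows, and 0 to 4. Members above both controls ranged from 8 to 23 and below both from 6 to 11 with 1 array left out, which needs fewer arrays to agree; below both there was 1 among bright rows, where fewer genes are tested. Members 1.5-fold above both controls ranged over 1 to 3 in shRNA 1, 1 to 4 in shRNA 2 and 3 to 6 in shRNA 3 with 1 array left out, and those below over 0 to 1 in shRNA 2 and 1 to 2 in shRNA 3; at 2-fold, 0 remained above in shRNAs 1 and 2 and 0 below in shRNA 3. The median of the 54 was 0.14 with median centring, which raised the median of all genes to 0.05, and 0.0214 to 0.119 with 1 array left out. That of other components was -0.0159 with quantile normalization, 0.00551 with median centring and -0.0903 to -0.0319 with 1 array left out. That of target genes was -0.0341 with array weights, -0.033 with the block and -0.116 to -0.033 with 1 array left out. Signs turned for BMP1 with the mean of rows (-0.14), for BMP7 with array weights (-0.0652) and the block (-0.14), for SMAD9 with the block (0.0516), for CHRDL1 with array weights (-0.0462) and the block (-0.22), for GDF15 with the block (-0.16), for ID2 with median centring (0.0532) and for ID1 with quantile normalization, array weights and the block (-0.0182, -0.0013 and -0.00029). In the block fit shRNA 3 does not enter the difference, as no control shares its number. With 1 array left out, differences ranged from -0.0396 to 0.28 for TGFBR2, -0.14 to 0.39 for BMP7, -0.0192 to 0.33 for BMPR2, -0.0776 to 0.31 for ACVR2A, -0.42 to 0.0516 for SMAD9, -0.0577 to 0.0617 for ID1, -0.15 to 0.0813 for ID2, -0.00555 to 0.23 for SKIL, -0.22 to 0.72 for CHRDL1 and -0.16 to 0.62 for GDF15. Apart from the left-out arrays, the causes were not tested. Of 22 genes with differences under 0.1 and no stated value, 16 turned sign under some alternative.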
